A study of Auricularia auricula-judae with 2 samples.

Results

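The genes described here are 4 assembled genes of Auricularia auricula-judae, the wood-ear mushroom, whose closest Swiss-Prot matches are multicopper oxidases. They are a bilirubin oxidase (BLRO_MYRVE, TBIU011885), a pair of laccase-2 genes (lcc2, TBIU046262 and TBIU017636) and a laccase-1 (yA, TBIU006176). They are 4 of 43428 assembled genes and hold 15 of 57717 assembled transcripts. An assembled gene was taken as all transcripts that share an assembly name without its isoform suffix, and its level as the sum over them. The genes were chosen by their descriptions together with their FPKM ratio between the libraries, so their levels and ratios are given as descriptions. All 4 were at least 2-fold apart, beside 18.0% of measured genes, and nothing is read from that count.

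Multicopper oxidases take electrons from a substrate at a copper site and pass them through further bound coppers to oxygen, which becomes water. Laccases of this family oxidise phenols, and in wood-decay fungi they are known for acting on lignin-derived phenols, for making pigment and for work in fruit bodies. Bilirubin oxidase, known from the mould Myrothecium verrucaria, oxidises the bile pigment bilirubin and also accepts phenols. Ferroxidases of the same family, known from yeasts, oxidise iron for uptake by an iron permease.

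RNA came from fruit bodies in 2 groups of 1 library each. In the irradiated group, mycelium that had grown on potato dextrose agar received 200 Gy of gamma radiation. In the control group, mycelium grown in the same way received none. Both were then moved to sawdust and rice bran in a ratio of 8 to 2 by weight, so the exposure preceded the fruiting. The strain and the number of fruit bodies per library are not stated in the labels. With 1 library a group no difference has a replicate check, and no p-value was computed. In homogenised fruit bodies, fewer cells of a type and less RNA per cell cannot be told apart.

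The pair of values behind the authors' fold change, called scaled reads here, carries no library name and was assigned by the direction of that fold change. It summed to 8404060 in the irradiated library and 8872430 in the control library. These values were already scaled, so the sums do not give the sizes of the libraries. Levels are in FPKM, which are fragments scaled to transcript length and library size, and ratios are log2 of (irradiated FPKM + 1) over (control FPKM + 1). A gene was called measured with 100 or more scaled reads over both libraries, which 8249 genes had, and as higher or lower where the ratio reached 2-fold. The median log2 ratio of these genes was 0.10. Of them, 769 (9.32%) were higher and 716 (8.68%) were lower in the irradiated library. With that median subtracted, 598 were higher and 853 lower. Genes of a list of fruit body and mycelium markers, which does not separate these tissues, were present in both libraries. Fruiting body protein SC7 (TBIU011590) had 256 FPKM in the irradiated library and 137 FPKM in the control library. The gene priA (TBIU004136), named from shiitake fruiting, had 122 and 88.9 FPKM in the irradiated and control libraries. Another priA gene (TBIU004821) had 23.1 FPKM in the irradiated library and 24.9 FPKM in the control library, and SC3 (TBIU005515) had 32.7 and 39.7 FPKM in the irradiated and control libraries. The 10 measured genes of that marker list summed to 837 FPKM in the irradiated library and 704 FPKM in the control library. Some of them are plant receptor kinases matched by the word lectin. Their log2 ratios had a median of 0.01, with 5 above 0 and 5 below. The 1 gene past 2-fold was such a kinase match, LECRK54 (TBIU007473), at -1.52. No gene was described by a term of the list for rice and other plant matter. Only 1 description per gene was searched, so descriptions of its other isoforms were not covered.

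All 4 genes passed the minimum of 100 scaled reads. The bilirubin oxidase gene and both laccase-2 genes were higher in the irradiated library, and the laccase-1 gene was lower. These directions belong to the choice of the genes and are not a result about them. Summed, the 4 genes had 614 FPKM in the irradiated library and 129.9 FPKM in the control library. The other 2 measured genes described as multicopper oxidases were within 2-fold. These were a laccase (LAC-1, TBIU022011) and another laccase-2 gene (lcc2, TBIU016449). The other 7 of the 13 genes with such a description had at most 10.5 scaled reads.

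**Figure D1:**
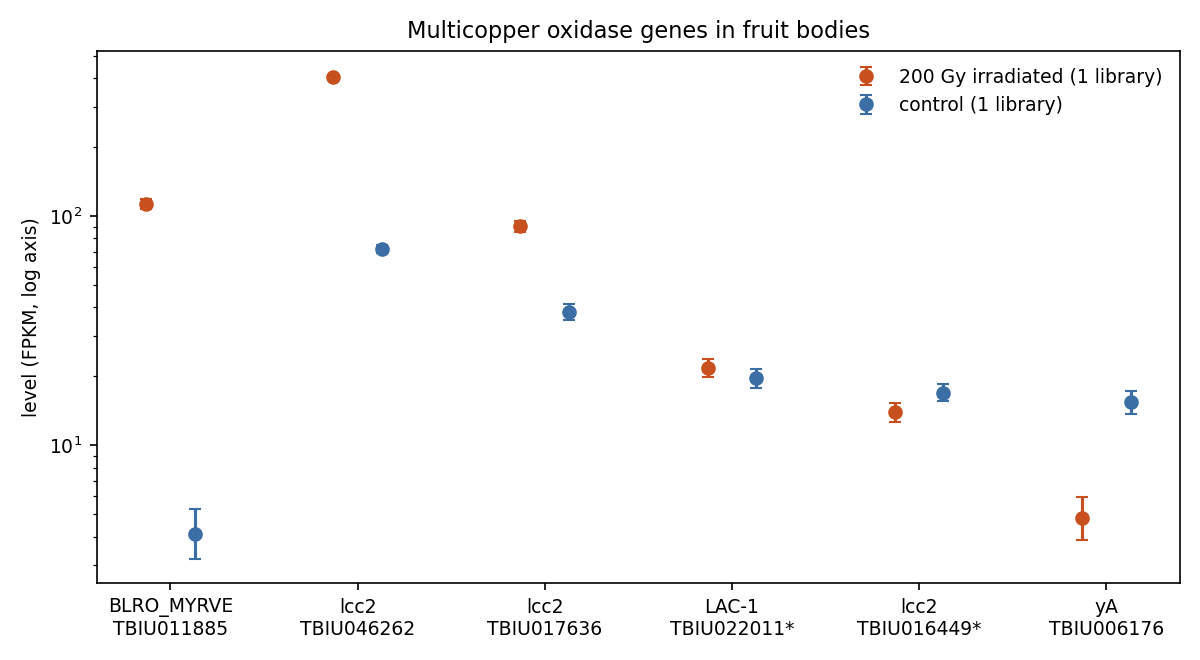
Levels of the 6 measured multicopper oxidase genes, in FPKM on a log axis, with the 200 Gy irradiated library left of the control library. Points are the single library of each group, bars are 95% counting intervals, and an asterisk marks the LAC-1 and lcc2 genes that were within 2-fold. The bilirubin oxidase gene is the lowest of the 6 in the control library at 4.12 FPKM and the second highest in the irradiated library at 112.9 FPKM.

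The bilirubin oxidase gene TBIU011885 had the widest difference of the family. Its level was 112.9 FPKM in the irradiated library (95% counting interval 107 to 119) and 4.12 FPKM in the control library (3.20 to 5.30). The irradiated level was 27.4-fold the control level, and the log2 ratio was 4.48. It rested on 1618 scaled reads in the irradiated library and 63.5 in the control library. The ratio of these scaled reads had a 95% interval of 19.7-fold to 33.0-fold. Counting intervals cover counting error only, since reads without molecular identifiers are not independent molecules and no difference between fruit bodies enters them. Among the 8249 measured genes its log2 ratio ranked 3 from the top. By level it lay at percentile 79.8 of the measured genes in the irradiated library and at percentile 2.27 in the control library.

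The laccase-2 gene TBIU046262 was the most abundant multicopper oxidase in both libraries. It had 406 FPKM in the irradiated library (398 to 413) and 71.98 FPKM in the control library (68.9 to 75.1). The irradiated level was 5.64-fold the control level, a log2 ratio of 2.48, which ranked 27 from the top. It rested on 13420 scaled reads in all, more than the other 5 measured family genes, and its interval for the ratio of scaled reads was 5.09-fold to 5.59-fold. In the irradiated library it lay at percentile 95.9 of the measured genes by level, and in the control library at percentile 70.7.

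The laccase-2 gene TBIU017636 lay near the 2-fold line. It had 90.5 FPKM in the irradiated library (85.6 to 95.7) and 38.4 FPKM in the control library (35.3 to 41.6), which is 2.36-fold, a log2 ratio of 1.22. The interval of its scaled-read ratio was 1.95-fold to 2.38-fold and so reached just under 2-fold. It ranked 457 from the top of the 8249 genes, inside the 9.32% that were higher.

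The laccase-1 gene TBIU006176 was the family's lower gene. Its Swiss-Prot match yA is known from Aspergillus nidulans, where the enzyme makes the green spore pigment. The gene had 4.85 FPKM in the irradiated library (3.86 to 5.97) and 15.4 FPKM in the control library (13.7 to 17.3). The log2 ratio was -1.49, and it ranked 326 from the bottom of the measured genes. It had the fewest reads of the measured family genes, with 85.4 scaled reads in the irradiated library and 286 in the control library. On those scaled reads the log2 ratio was -1.74, with an interval of -2.12 to -1.40.

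The 2 measured family genes outside this group differed little. LAC-1 (TBIU022011) had 21.9 FPKM in the irradiated library (19.98 to 23.9) and 19.6 FPKM in the control library (17.9 to 21.5), so the intervals overlapped. Its log2 ratio was 0.15, and the interval of the scaled-read ratio, -0.11 to 0.27, covered 0. The laccase-2 gene TBIU016449 had 14.0 FPKM in the irradiated library (12.7 to 15.4) and 17.0 FPKM in the control library (15.6 to 18.5). Its log2 ratio was -0.26, and its scaled-read interval of -0.55 to -0.18 stayed below 0 and within 2-fold. The 3 measured laccase-2 genes therefore had log2 ratios of 2.48, 1.22 and -0.26 in this pair of libraries.

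**Figure D2:**
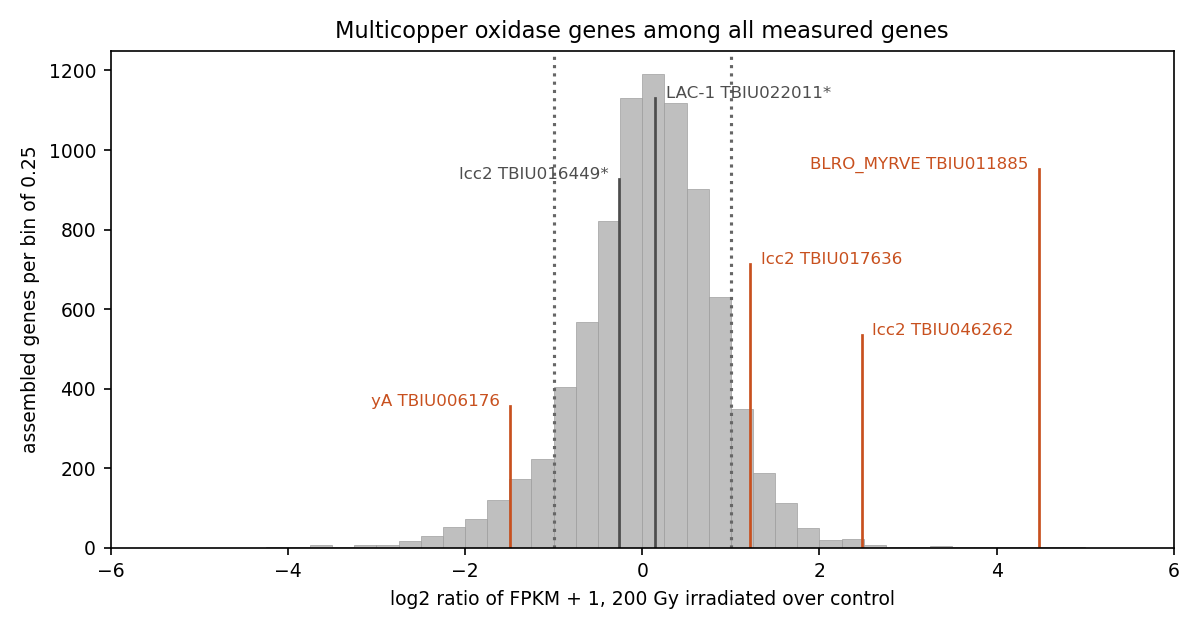
Histogram of log2 ratios, 200 Gy irradiated over control, for the 8249 measured genes in bins of 0.25, with vertical lines at the 6 multicopper oxidase genes and dotted lines at 2-fold. The heights of the coloured lines carry no value, the asterisk marks LAC-1 and lcc2 TBIU016449, and 1 gene lies beyond the axis limit of 6. TBIU011885 stands at 4.48 and TBIU006176 at -1.49, on opposite sides of the bulk.

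The order of the genes by level, per length, differed between the libraries. In the irradiated library the order was TBIU046262, TBIU011885, TBIU017636, TBIU022011, TBIU016449 and TBIU006176, and no 2 neighbours had overlapping counting intervals. In the control library the order was TBIU046262, TBIU017636, TBIU022011, TBIU016449, TBIU006176 and TBIU011885. There the intervals of TBIU022011 and TBIU016449 overlapped, and so did those of TBIU016449 and TBIU006176. Overlap of intervals does not decide an order, and the order of these neighbours was not tested. TBIU046262 made up 62.4% of the summed FPKM of the 6 genes in the irradiated library and 43.2% in the control library. The bilirubin oxidase gene made up 17.4% in the irradiated library and 2.47% in the control library. TBIU017636 held 13.9% in the irradiated library and 23.0% in the control library, and the laccase-1 gene held 0.746% and 9.26% in the irradiated and control libraries. The 6 genes together had 649.8 FPKM in the irradiated library and 166 FPKM in the control library, which was 0.0660% and 0.0172% of all FPKM.

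The 4 listed names are those of single isoforms, and the genes were chosen with the values of these libraries known, so isoform values are also given as descriptions. Levels of isoforms of 1 gene are estimates that divide shared reads, and how those reads were divided was not tested. TBIU046262 and TBIU006176 were assembled as 1 isoform each, the bilirubin oxidase gene as 4 and TBIU017636 as 9.

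All 4 bilirubin oxidase isoforms were higher by 2-fold or more in the irradiated library. The share of all isoforms past 2-fold was not counted, so nothing is read from that count. With 5 FPKM added in place of 1, isoform TBIU011884 was within 2-fold, at 0.92. Isoform TBIU011885 had 62.2 FPKM in the irradiated library and was listed at 0 in the control library. Isoform TBIU011882 had 10.5 FPKM in the irradiated library and was also listed at 0 in the control library. Isoform TBIU011883 had 34.2 FPKM in the irradiated library and 3.34 FPKM in the control library, a log2 ratio of 3.02. Isoform TBIU011884 had 5.91 FPKM in the irradiated library and 0.78 FPKM in the control library. The most abundant isoform was therefore TBIU011885 in the irradiated library, with 55.1% of the gene's FPKM, and TBIU011883 in the control library, with 81.1%. A change of the leading isoform was seen in 27.2% of 4154 measured genes with several isoforms. The share of the gene's FPKM that sat on other isoforms in 1 library than in the other was 64.4%, beside a median of 14.4% over those genes. Most of that share is the isoform TBIU011885 by which the gene was listed, so nothing is read from it. The control shares rest on the 63.5 scaled reads of this gene. TBIU011885 had 885 scaled reads and TBIU011882 had 141, all in the irradiated library. Of all isoforms with 100 or more scaled reads in such genes, 2.11% were listed at 0 in 1 library, and nothing is read from this share since TBIU011885 is a listed row.

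The 9 isoforms of the laccase-2 gene TBIU017636 did not all go one way. In the irradiated library, 7 were higher by 2-fold or more, 1 was within 2-fold and 1 was lower. The share of all isoforms past 2-fold was not counted, so nothing is read from these counts. With 5 FPKM added in place of 1, all 9 were within 2-fold, from -0.71 to 0.96. The leading isoform was the same in both libraries: TBIU017636 had 48.2 FPKM in the irradiated library and 22.3 FPKM in the control library, or 53.2% and 58.2% of the gene. Its own log2 ratio was 1.08. With the overall median of 0.10 subtracted, this isoform and TBIU017631 were just under 2-fold, at 0.97 and 0.90. Isoform TBIU017639 had 7.21 FPKM in the irradiated library and 5.19 FPKM in the control library, a log2 ratio of 0.41, the one within 2-fold. Isoform TBIU017633 was at 0 in the irradiated library, against 3.18 FPKM in the control library. Its description is not a laccase but the iron transport multicopper oxidase fio1, the ferroxidase of fission yeast. Isoform TBIU017635, a laccase-2, was the reverse, with 4.59 FPKM in the irradiated library and listed at 0 in the control library. At 51.6 and 68 scaled reads, these isoforms are among the 4.60% with 50 or more scaled reads that were listed at 0 in 1 library. The share that sat on other isoforms was 19.2% for this gene.

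The descriptions within TBIU017636 covered 4 Swiss-Prot names. Isoform TBIU017638 is described as laccase-1 (lcc1) and had 8.01 FPKM in the irradiated library and 1.90 FPKM in the control library. Isoform TBIU017634 is described as laccase-3 (LCC3) and had 5.27 FPKM in the irradiated library and 0.57 FPKM in the control library, on 14.1 scaled reads. Of the remaining 7 isoforms, 6 are laccase-2 and 1 is fio1. All isoforms of the bilirubin oxidase gene had the same description.

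**Figure D3:**
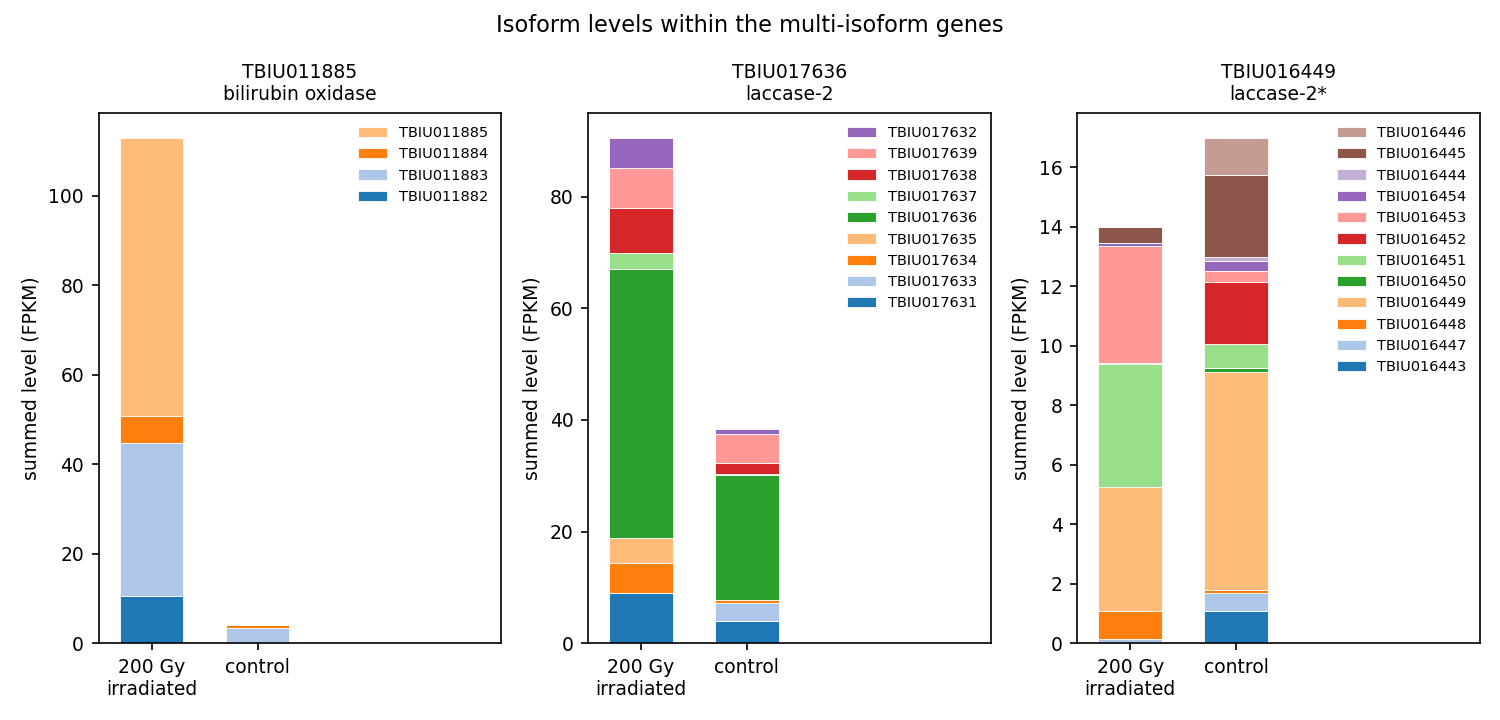
Stacked isoform levels, in FPKM, for the bilirubin oxidase gene and for the laccase-2 genes TBIU017636 and TBIU016449 (asterisk, within 2-fold), with the 200 Gy irradiated library left of the control library and a separate axis for each gene. Colours stand for isoforms. The isoform TBIU011885 fills 55.1% of the first irradiated bar and is absent from the control bar, while TBIU017636 leads both bars of the second panel.

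The laccase-2 gene TBIU016449 had isoforms with ratios on both sides of 0 under a nearly level sum. In the irradiated library, 2 of its 12 isoforms were higher and 4 were lower by 2-fold or more, and 4 were listed at 0. Nothing is read from these counts, since the share of all isoforms past 2-fold was not counted. No isoform of the gene was above 7.34 FPKM in either library, and ratios at such levels depend on the added 1 FPKM. Ratios with 5 FPKM added were not computed for these isoforms. By FPKM, isoform TBIU016449 was the highest in both libraries, with 4.18 FPKM in the irradiated library and 7.34 FPKM in the control library. In the irradiated library it had 126 scaled reads, beside 127 for TBIU016451, so that lead depends on the measure used. Isoform TBIU016451 had 4.14 FPKM in the irradiated library and 0.78 FPKM in the control library, and TBIU016453 had 3.93 and 0.40 FPKM in the irradiated and control libraries. Isoform TBIU016445 had 0.55 FPKM in the irradiated library and 2.74 FPKM in the control library. The share on other isoforms was 56.7%, at percentile 94.0 of the genes with several isoforms.

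Transcript lengths were not used here, but the ratio of a transcript's share of scaled reads to its FPKM gives an effective length, if the authors' FPKM were scaled to the reads listed. By this estimate the 4 bilirubin oxidase isoforms were 1.54 to 1.79 kb, and the leading isoform of TBIU017636 was 1.70 kb. The laccase-1 transcript TBIU006176 was 2.09 kb. The laccase-2 transcript TBIU046262 was longer, at 3.31 kb, and the isoforms of TBIU016449 were 3.51 to 3.69 kb. These 2 genes match the same Swiss-Prot laccase-2 entry, and TBIU017636 matches another. The laccase-3 isoform TBIU017634 was 0.287 kb, a fragment beside the other isoforms of its gene.

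The assembly clusters of the 4 genes held little else. Laccase-1 has a cluster neighbour, TBIU006175, also described as yA, with 0.80 FPKM in the irradiated library and listed at 0 in the control library. With this neighbour added, the log2 ratio of the laccase-1 gene was -1.30. The cluster neighbour of the bilirubin oxidase gene, TBIU011881, has no description and 0.548 scaled reads.

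The authors' deposited table gives a p-value per transcript from a test that the labels and headers do not name. In the authors' deposited table, isoform TBIU011885 has the lowest p-value of all 57717 transcripts, 0.000468. In the authors' deposited table, 4 of the 15 isoforms have a p-value under 0.05, beside 2.33% of all transcripts, and these 4 are the isoforms listed at 0 in 1 library. The genes were chosen on the same contrast, so nothing is read from that count. The abundant laccase-2 TBIU046262 has a p-value of 0.240 in the authors' deposited table, and the laccase-1 TBIU006176 has 0.390. Every q-value in the authors' deposited table is 1.

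Genes that supply copper to such enzymes had close levels in the libraries. Of 38 genes matched by their descriptions, 7 were measured, and 0 of them were higher or lower by 2-fold, beside 9.32% and 8.68% of all measured genes, which a list of 7 genes cannot be told from. Their median log2 ratio was -0.20, beside 0.10 for all measured genes. A copper-transporting ATPase of the kind that loads secreted oxidases (ATP7A, TBIU022145) had 83.1 FPKM in the irradiated library and 86.2 FPKM in the control library. The copper chaperone ATX1 (TBIU005344), which hands copper to that pump, had 42.3 FPKM in the irradiated library and 56.2 FPKM in the control library. A second ATX1 gene (TBIU005345) had 59.8 FPKM in the irradiated library and 68.9 FPKM in the control library. The lowest and highest ratios of the list were -0.42 for the copper resistance protein CRF1 (TBIU015650) and 0.33 for SCO1 (TBIU012556), which delivers copper to cytochrome oxidase. A second copper-transporting ATPase (Atp7a, TBIU059592) had a log2 ratio of 0.12.

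The list of iron uptake genes holds the iron permease that works with ferroxidases, and also ferric reductases and a siderophore transporter. Of 6 measured genes, 1 was higher and 1 lower, beside 9.32% and 8.68% of all measured genes, with a median log2 ratio of 0.36. The iron permease FTR1 (TBIU010280) had 19.1 FPKM in the irradiated library and 9.99 FPKM in the control library, a log2 ratio of 0.87. The siderophore transporter mirB (TBIU021154) had 30.4 FPKM in the irradiated library and 14.7 FPKM in the control library, just past 2-fold, and was within 2-fold once the overall median was subtracted. The ferric reductase FRE3 (TBIU051249) had 2.35 FPKM in the irradiated library and 38.8 FPKM in the control library. Another FRE3 gene (TBIU006796) had a log2 ratio of -0.87 by FPKM and a scaled-read interval of -0.56 to -0.24. No gene with a ferroxidase as its own description was measured: the 3 genes described as FET3 or FET5 had at most 2.90 scaled reads each. The fio1 isoform TBIU017633, with 51.6 scaled reads, is part of the laccase-2 gene TBIU017636.

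Of 11 measured genes for lignin, dye and aromatic peroxidases and peroxygenases, which like laccases oxidise aromatic compounds, 2 were higher and 1 was lower, beside 9.32% and 8.68% of all measured genes, with a median log2 ratio of -0.16. The aromatic peroxygenase APO1 (TBIU005931) had 1692 FPKM in the irradiated library and 355.5 FPKM in the control library, a log2 ratio of 2.25. It was more abundant, per length, than any of the 6 multicopper oxidases in both libraries. The other higher gene, APO1 (TBIU020355), had 7.19 FPKM in the irradiated library and 1.94 FPKM in the control library. Chloroperoxidase (CPO, TBIU004010) had 102.4 FPKM in the irradiated library and 283 FPKM in the control library, a log2 ratio of -1.46. The versatile peroxidase vpl1 (TBIU006542), which oxidises lignin and manganese, had 53.98 FPKM in the irradiated library and 86.9 FPKM in the control library, within 2-fold.

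Oxidases that make hydrogen peroxide, the co-substrate of those peroxidases, had 1 gene past 2-fold, and at this size of list that is near the 18.0% of all measured genes. Of 9 measured genes, 0 were higher and 1 was lower by 2-fold, 3 lay above 0 and 6 below, and the median log2 ratio was -0.37. The lower gene, galactose oxidase (GAOA, TBIU022048), had 13.4 FPKM in the irradiated library and 33.1 FPKM in the control library, a log2 ratio of -1.25. Its scaled-read interval of -0.63 to -0.23 lay within 2-fold, so its call depends on the measure used. Why the measures differ was not tested. The glucose oxidase GOX (TBIU008351) had a log2 ratio of -0.86. The highest were another glucose oxidase (GOD, TBIU003440) at 0.57 and pyranose 2-oxidase (p2ox, TBIU005797) at 0.42.

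Of the other copper oxidases, 0 of 6 measured genes were 2-fold apart, beside 18.0% of all measured genes, from which a list of 6 cannot be told apart. The median log2 ratio was 0.02. Of the tyrosinase genes, which start melanin synthesis, TBIU016709 (tyr1) had 141 FPKM in the irradiated library and 161 FPKM in the control library. The tyr1 genes TBIU058852 and TBIU057804 had the lowest ratios of the list, -0.63 and -0.41. Copper amine oxidase 1 (cao1, TBIU016880) had the highest, with 81.0 FPKM in the irradiated library and 43.6 FPKM in the control library, a log2 ratio of 0.88. The amine oxidase Aoc1 (TBIU023568) followed at 0.50.

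**Figure D4:**
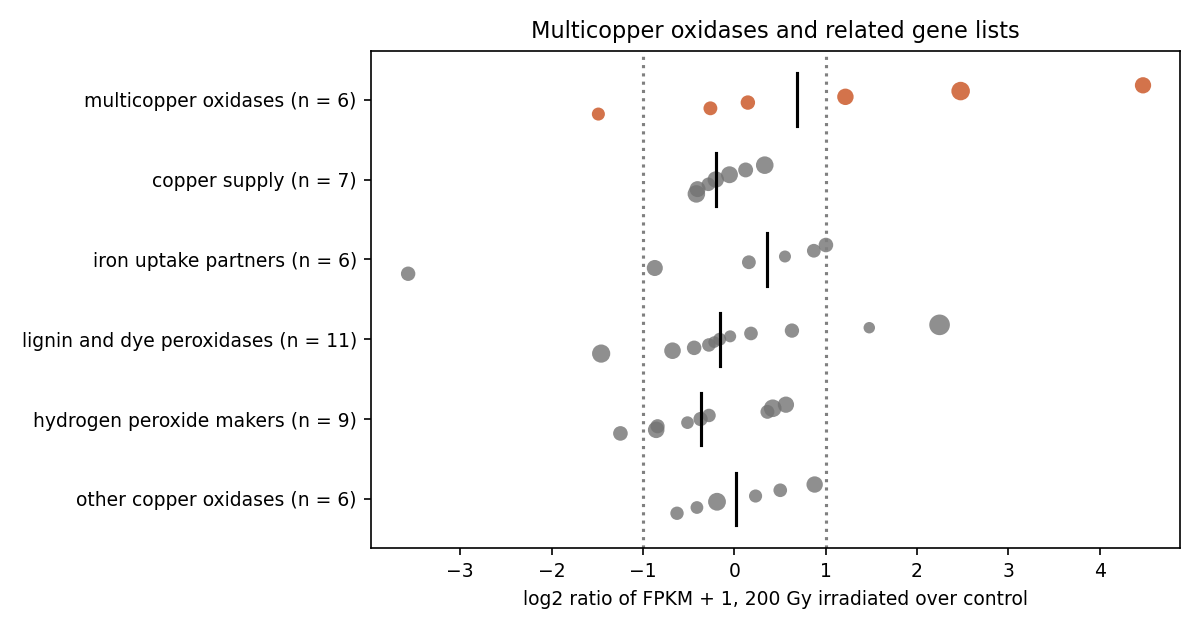
Log2 ratios, 200 Gy irradiated over control, of the measured genes in the multicopper oxidase list and in 5 related lists, 1 point per gene, sized by its mean level, with black lines at the list medians and dotted lines at 2-fold. The multicopper oxidases lie between -1.49 and 4.48, and both ends are genes chosen with this ratio known, so their spread is not compared with other lists. LAC-1 and lcc2 TBIU016449, which are not among the chosen genes, lie at 0.15 and -0.26. The copper supply genes lie between -0.42 and 0.33.

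The described genes with the most similar pair of levels were found by the distance between log2(FPKM + 1) values over the 2 libraries. Nearest to the bilirubin oxidase gene were the transporter AQR1 (TBIU006742), with 70.6 FPKM in the irradiated library and 7.42 FPKM in the control library at a distance of 0.98, and ALTA7 (TBIU012846) at 1.37. Nearest to TBIU046262 were quercetin 2,3-dioxygenase (yhhW, TBIU010411), with 325 and 51.6 FPKM in the irradiated and control libraries at a distance of 0.57, and a coq2 gene (TBIU017135) at 0.77. TBIU017636 was nearest to GIT1 (TBIU024221) and pnu1 (TBIU006164), at 0.03 and 0.04. The laccase-1 gene was nearest to srs2 (TBIU013960) and tef3 (TBIU005431), at 0.02 and 0.11.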

How the data were processed

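The authors deposited 1 table with a line per assembled transcript and 2 columns of FPKM, named by the sample descriptions in the headers. The labels and headers name no program for assembly, alignment or counting of reads. A second pair of values in the deposited table carries no unit or sample name. It was taken as the pair behind the authors' deposited log2 fold change, which equals its log2 ratio within 0.05 for 99.97% of the 30095 transcripts above 0 in both, and it is called scaled reads because values under 10 of single-isoform genes are mostly whole multiples of 0.968 on the irradiated side and 1.03 on the control side (96.9% and 96.1%, within 0.05 of a multiple). The deposited p-value and q-value per transcript come from the authors, per the file headers.

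FPKM and scaled reads were summed per assembled gene with pandas 2.3.3. Clopper-Pearson 95% intervals for ratios and exact Poisson 95% intervals for levels used rounded scaled reads (scipy 1.17.1). FPKM ratios of measured transcripts exceed those of scaled reads by a median of 0.07 on the log2 scale. A gene's description is that of its described isoform with the most scaled reads. Named from each related list were the 2 highest and 2 lowest ratios, and for each of the 4 genes the 2 nearest described genes. TBIU022145, TBIU005345, TBIU016709, the fruit body and mycelium markers and genes with few reads were named after their values were seen. Counting was tested on simulated data. The members and lists were chosen with earlier results of these data known.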

Additional observations from a re-analysis of the deposited data

How the results depend on the processing

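Over 8 other settings each, all 4 genes kept their direction and stayed at least 2-fold apart. The genes were chosen on this ratio and not every setting could move it, so nothing is read from that agreement. Summing only isoforms described as a multicopper oxidase gave the main value for all 4 genes. The cluster sum gave the main value for TBIU046262 and TBIU017636. The isoform with the most reads gave it for TBIU046262 and TBIU006176. Log2 ratios ranged from 3.69 to 5.98 for TBIU011885, 2.37 to 2.49 for TBIU046262, 1.08 to 1.24 for TBIU017636 and -1.73 to -1.05 for TBIU006176. Of these settings, the one with no pseudocount was chosen after seeing the data. A pseudocount of 5 gave 3.69 for TBIU011885 and -1.05 for TBIU006176, the isoform with the most reads gave 5.98 for TBIU011885, and removal of the overall median gave 2.37 for TBIU046262.

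Counts over all genes depended on the minimum. A minimum of 20 scaled reads gave 1418 higher and 1474 lower of 12552 genes, and no minimum gave 14182 and 11862 of 43428. A pseudocount of 5 gave 503 higher of 8249, and a mean of 10 FPKM or more gave 1078 lower of 8910 genes. With no minimum, the counts of higher and lower genes were 6 and 4 of 13 multicopper oxidases and 15 and 10 of 38 copper supply genes. They were 6 and 6 of 21 iron uptake genes and 7 and 7 of 28 peroxidases and peroxygenases. For hydrogen peroxide makers they were 4 and 2 of 20, and for other copper oxidases 1 and 1 of 8. Beside 14182 and 11862 of all 43428 genes, nothing is read from these list counts. A minimum of 20 scaled reads gave 2 higher and 2 lower of 10 iron uptake genes and 2 lower of 11 hydrogen peroxide makers. The iron uptake list had 0 higher genes with a pseudocount of 5, with the overall median removed and with scaled values. The peroxidase list had 1 higher gene with a pseudocount of 5 and 1 with a mean of 10 FPKM or more. The hydrogen peroxide makers had 0 lower genes with scaled values, 0 with the isoform of most reads alone and 2 with a mean of 10 FPKM or more. Beyond what fewer or more genes under another minimum gives, the cause was not tested. No paired analysis was possible because each group has 1 library. With 1 library a group, no library could be left out, and genes under 100 scaled reads are limited by depth.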

Other observations

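The 7 genes described as multicopper oxidases that fell under the minimum had between 1.94 and 10.5 scaled reads each. Of these, 2 were listed at 0 in the irradiated library, 4 were listed at 0 in the control library and 1 was above 0 in both. The gene above 0 in both, described as the spore laccase yA (TBIU027290), had 1.02 FPKM in the irradiated library and 3.18 FPKM in the control library. Those listed at 0 in the irradiated library were the ferroxidase matches FET5 (TBIU028724) and FET3 (TBIU036276), with 6.08 and 4.62 FPKM in the control library. Another FET3 match (TBIU028751) had 1.52 FPKM in the irradiated library and was at 0 in the control library. The yA match TBIU006175 had 10.5 scaled reads in the irradiated library and was listed at 0 in the control library. No interval was computed for these genes, and with so few reads no difference between the libraries is read from them.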
